A study of Mus musculus with 15 samples.

Results

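The Id genes and the BMP signalling genes that act above them were followed in mouse neural precursor cells from lines built to overexpress the stress-response transcription factor Atf3 or Atf4, and in a control line. The 10 genes were taken by symbol: Id1, Id2, Id3 and Id4, the ligand gene Bmp4, the receptor genes Bmpr1a and Bmpr2, and the Smad genes Smad9, Smad6 and Smad7. They are 10 of 55416 Ensembl gene identifiers in the count table, and all 10 passed the filter on low counts. The precursor cells came from the hippocampus of 6-week-old female mice and had been grown with EGF and FGF2. A piggyBac transposon had placed a Tet-On cassette with puromycin resistance into the genome of each of the 3 stable lines. In the Atf3 line (Atf3-OE) and the Atf4 line (Atf4-OE) the cassette also held the coding sequence of that factor behind the TRE3G promoter, and in control cells (Overexpression-control) it held neither. The SV40-TetON-3G transactivator, which makes that promoter respond to doxycycline, was present in all lines. In every culture EGF and FGF were withdrawn to start differentiation, doxycycline at 100 ng/ml was added at the same time, and cells were harvested for RNA at 10 h. Each line gave 5 libraries, and the lines are called control cells, Atf3 cells and Atf4 cells here. There was 1 line per construct, so the transgene and any other difference between lines cannot be told apart. The labels do not say that libraries of a line were separate cultures, and the p-values measure only the spread between these libraries, which may be technical.

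BMP ligands such as BMP4 bind a receptor complex in which a type II receptor (BMPR2) activates a type I receptor (BMPR1A), which then phosphorylates SMAD1, SMAD5 or SMAD9. These join SMAD4, enter the nucleus and switch on target genes, of which the Id genes are the best known. Id proteins lack a DNA-binding region and hold E proteins, the partners of proneural bHLH factors, in complexes that cannot bind DNA. SMAD6 and SMAD7 are feedback inhibitors of the pathway. In the adult hippocampus BMP signalling is known to keep neural stem cells quiescent, and Id4 is known as a factor of that quiescence.

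Sequence before the start of Id4 is shown because Id4 had the largest fold of the Id genes. RefSeq windows on GRCm38.p6 were matched for 8 of the 10 genes (Id2, Id3, Id4, Bmp4, Bmpr1a, Bmpr2, Smad6 and Smad9). The start used by RefSeq is not always the outermost one: in GENCODE M21 the 250 bases before it lie inside the annotated gene for Id2, Id3, Bmpr1a and Bmpr2, and outside it for Id4, Bmp4, Smad6 and Smad9. The 250 bases before the RefSeq start of Id4 follow, 5′ to 3′, with the GC-rich SMAD motif GGCGCC in capitals (chr13:48260866-48261115, plus strand).
Id4: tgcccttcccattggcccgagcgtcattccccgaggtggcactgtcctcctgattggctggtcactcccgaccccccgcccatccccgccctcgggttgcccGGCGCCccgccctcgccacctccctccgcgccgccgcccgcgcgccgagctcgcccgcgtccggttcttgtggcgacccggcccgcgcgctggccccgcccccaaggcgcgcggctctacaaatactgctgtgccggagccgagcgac

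Of letter patterns, 6 were searched on both strands in the window from 250 bases before to 50 bases after each start. GGCGCC was present once in each of 5 of the 8 windows, those of Id2, Id4, Bmpr1a, Bmpr2 and Smad9. It occurred in 11.9% of all 32851 windows, and in 30% of the windows with at least 59.3% G and C, the lowest share in the 8 windows. The 8 windows reached 79.3% G and C (Bmpr1a), so these shares are not matched to them. Whether any protein binds these letters was not tested. The SMAD palindrome GTCTAGAC was found in the window of Smad6 alone, and in 0.213% of all windows. It began 4 bases before the start of Smad6 and ran across it. The CRE TGACGTCA (1.79% of all windows) and its shorter part TGACGT, which also counts every full CRE (7.51%), were found in none of the 8 windows. The same held for the AP-1 site TGACTCA (5.2%) and the C/EBP-ATF composite TGATGNAAN (3.95%), which says only that these letters are not in these windows. To show the same motif in other genes, stretches of 30 bases around it follow, with the motif in capitals, for Id2 (chr12:25096306-25096335, minus strand) and Bmpr1a (chr14:34502727-34502756, minus strand), both inside the annotated gene but outside its exons, and for Smad9 (chr3:54755519-54755548, plus strand), before its start.
Id2: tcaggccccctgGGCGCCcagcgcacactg
Bmpr1a: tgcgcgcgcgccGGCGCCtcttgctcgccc
Smad9: gcacggccgcctGGCGCCcttccagcgcgg

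Libraries held 53697071 to 69561713 counts. Atf3 was at 5.02 ± 4.10 CPM in control cells, 1941 ± 120 CPM in Atf3 cells and 1.40 ± 0.306 CPM in Atf4 cells, and Atf4 at 83.2 ± 6.75, 250.3 ± 16.5 and 153 ± 21.7 CPM (SD, n = 5). Each factor was raised over control in the line named for it, and Atf4 was higher still in Atf3 cells. Control replicates 4 and 5 stood apart in Atf3, at 10.99 and 7.55 CPM against 1.67 to 3.02 CPM in the other controls. CPM is the usual depth-scaled count, here with TMM-scaled library totals. Of 8 precursor markers 7 were well detected, with a summed level of 3182 to 3412 CPM in the control libraries, 3811 to 3897 in the Atf3 libraries and 3529 to 3604 in the Atf4 libraries, and Prom1 was near 0. Of these 7, 3 rose and 2 fell in Atf3 cells, and 4 rose and 1 fell in Atf4 cells. Fabp7 (543 to 1228 and 882 CPM) and Nes (662 to 1018 and 834 CPM) rose, whereas Vim fell (1598 to 1148 and 1360 CPM). Id genes are also known from astrocytes and endothelial cells. The 6 astrocyte markers summed to 667 to 744 CPM in the control, 828 to 1011 in the Atf3 and 863 to 1017 in the Atf4 libraries, a rise that came mostly from Slc1a3 (427 CPM in control, 776.8 in Atf3 and 767 in Atf4 cells). Singly, 2 of the 6 rose and 3 fell in Atf3 cells, and 2 rose and 4 fell in Atf4 cells, with Gfap 2.38-fold and 1.98-fold lower and S100b 2.32-fold and 2.40-fold lower. The 6 endothelial markers summed to 45.4 to 49.75 CPM in the control, 13.4 to 19.6 in the Atf3 and 19.1 to 22.2 in the Atf4 libraries. Kdr fell from 44.3 to 10.1 and 16.4 CPM, whereas Tek (1.95 to 5.23 and 3.58 CPM) and Flt1 (0.543 to 1.01 and 0.860 CPM) rose in both lines, and the defining endothelial genes Cldn5, Cdh5 and Pecam1 lay at no more than 0.175 CPM on average in any line. The 6 microglia markers summed to at most 1.51 CPM and the 7 mural cell and fibroblast markers to at most 1.02 CPM in any library. The part of these marker levels in the results below was not tested.

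All 4 Id genes were lower in Atf4 cells than in controls, by 1.75-fold to 3.02-fold, and 3 of them, Id1, Id2 and Id4, were lower in Atf3 cells. Id3 was the exception: it fell 1.80-fold in Atf4 cells, but in Atf3 cells it stood at 136 ± 8.42 CPM against 146 ± 21.5 CPM in the control (SD, n = 5). Id4 had the largest fold of the 4 in both lines. In bulk RNA, fewer cells that express a gene and less RNA of it per cell cannot be told apart.

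Id1 (ENSMUSG00000042745; chromosome 2, 152736251 to 152737410, plus strand) encodes the founding member of the family. The 5 control libraries held 19.9, 24.1, 18.9, 22.1 and 25.9 CPM of Id1, the Atf3 libraries 15.1, 14.6, 14.25, 19.5 and 13.3, and the Atf4 libraries 12.75, 12.8, 12.6, 12.8 and 12.6. Every Atf4 library lay below every other library, whereas Atf3 replicate 4 overlapped the lowest control library. Its log2 fold change was -0.54 ± 0.09 SE in Atf3 cells (edgeR quasi-likelihood test, adjusted p = 3.59e-05) and -0.80 ± 0.09 SE in Atf4 cells (edgeR adjusted p = 4.68e-07). Here and below SE is an approximate standard error, the size of the change over the square root of the F statistic. The Atf4 libraries varied by a coefficient of variation of only 0.794%, where counting error at their mean of 779 counts would alone give about 3.58%.

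Id2 (ENSMUSG00000020644; chromosome 12, 25093799 to 25097140, minus strand) is the member best known for binding retinoblastoma protein as well as E proteins. Control libraries held 40.1, 43.95, 37.3, 35.6 and 41.9 CPM of Id2, Atf3 libraries 23.4, 27.6, 22.7, 27.4 and 26.5, and Atf4 libraries 23.2, 22.2, 20.5, 17.55 and 17.2. All 10 libraries of the overexpressing lines lay below all controls, and both of those lines overlapped each other. Id2 fell by 0.64 ± 0.08 SE on the log2 scale in Atf3 cells (edgeR adjusted p = 1.29e-06) and by 0.98 ± 0.08 SE in Atf4 cells (edgeR adjusted p = 1.02e-08).

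Id3 (ENSMUSG00000007872; chromosome 4, 136143497 to 136145755, plus strand) was the most abundant Id gene. It was at 122, 169, 137, 134 and 168 CPM in the control libraries, at 135.5, 137, 128, 149.7 and 129.8 CPM in the Atf3 libraries, and at 90.6, 82.0, 85.65, 72.2 and 73.9 CPM in the Atf4 libraries. The Atf3 libraries lay inside the control range, and the Atf4 libraries lay below all others. In Atf4 cells the log2 fold change was -0.85 ± 0.08 SE (edgeR adjusted p = 6.68e-08). In Atf3 cells it was -0.10, with an approximate 95% interval of -0.28 to 0.07, and did not pass the test (edgeR adjusted p = 0.281), although with upper-quartile scaling or plain library totals it did (-0.22 and -0.24, edgeR adjusted p = 0.0233 and 0.0138). Over all alternatives the adjusted p of Id3 in Atf3 cells was 0.0138 to 0.535.

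Id4 (ENSMUSG00000021379; chromosome 13, 48261228 to 48266026, plus strand) was the scarcest member. The control libraries held 7.18, 7.14, 6.75, 6.56 and 7.73 CPM of Id4, the Atf3 libraries 1.87, 1.80, 1.90, 2.05 and 1.445, and the Atf4 libraries 2.96, 2.82, 2.29, 1.995 and 1.56. No library of an overexpressing line reached the level of a control library. The log2 fold change was -1.97 ± 0.14 SE in Atf3 cells (edgeR adjusted p = 2.15e-10) and -1.59 ± 0.13 SE in Atf4 cells (edgeR adjusted p = 5.57e-09). Only 3.76% of all tested genes in Atf3 cells and 2.76% in Atf4 cells had a change of at least that size in either direction. For the other Id genes this share was larger. In Atf3 cells it was 39.8% for Id1, 32.7% for Id2 and 86.7% for Id3, and in Atf4 cells 13.9%, 9.48% and 12.6%. Antisense genes share 2.13% and 4.44% of the exon bases of Id4, and the library kit did not mark strand. The same limit holds for 3.96% of the exon bases of Bmp4 and 4.57% of those of Bmpr1a.

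**Figure D1:**
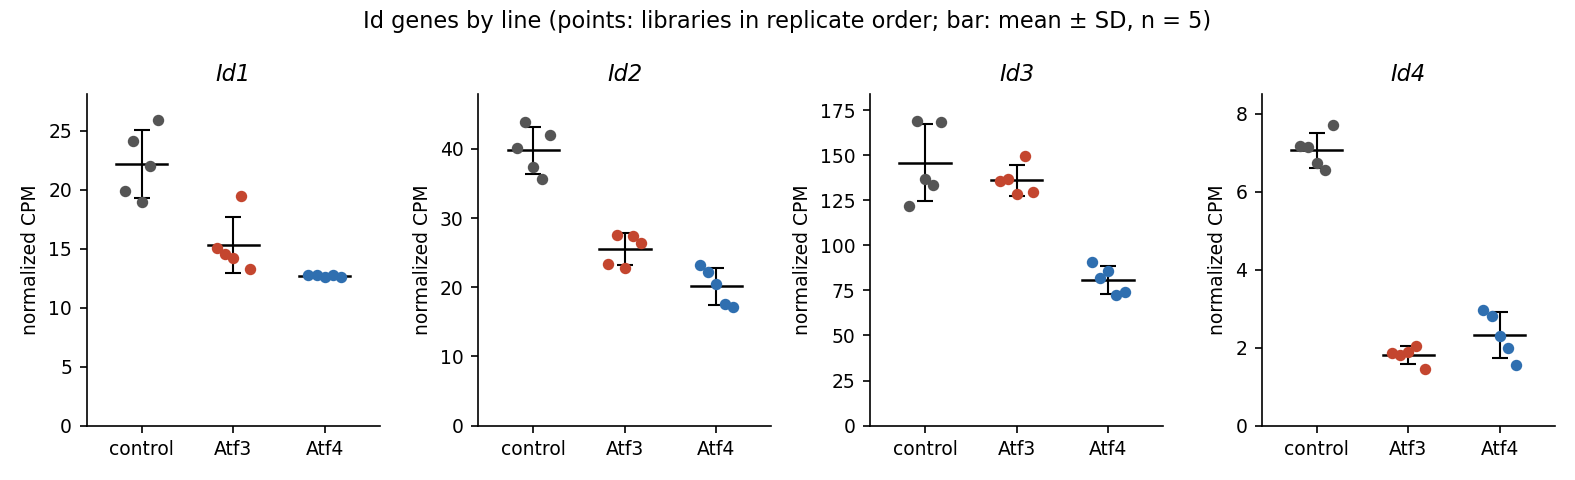
Normalized CPM (y axis, from 0) of Id1, Id2, Id3 and Id4 in the control, Atf3 and Atf4 lines (x axis). Points are the 5 libraries of a line, horizontal bars the mean and whiskers the SD. Id3 in the Atf3 libraries, 128 to 149.7 CPM, lies within the control range with TMM scaling (lower by test with upper-quartile scaling or plain totals), whereas Id4 is below every control library in both lines.

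Levels of different genes were compared per kilobase of exon. In the control line Id3 stood at 81.45 ± 12.01 CPM per kb, Id1 at 19.1 ± 2.50, Id2 at 16.3 ± 1.39 and Id4 at 1.84 ± 0.117 (SD, n = 5). Id1 and Id2 overlapped between libraries, and the other steps of this order exceeded the spread. The summed level of the 4 genes was 119 ± 15.3 CPM per kb in control cells, 100.1 ± 7.26 in Atf3 cells and 65.0 ± 5.51 in Atf4 cells. The lowest control library was at 103.5 and the highest Atf3 library at 112, so these lines overlapped, and the highest Atf4 library was at 71.9. Id3 made up 68.5 ± 1.71% of the summed level in control cells, 75.9 ± 0.834% in Atf3 cells and 69.45 ± 1.04% in Atf4 cells. The share of Id4 was 1.56 ± 0.159%, 0.470 ± 0.0482% and 0.922 ± 0.170% in the same order. The Id mixture of Atf3 cells was thus richer in Id3, in all 5 libraries (74.5% or more, against at most 70.6% in any other library), and that of Atf4 cells overlapped the control range for Id3 but not for Id4. These sums and shares are descriptions and were not tested.

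**Figure D2:**
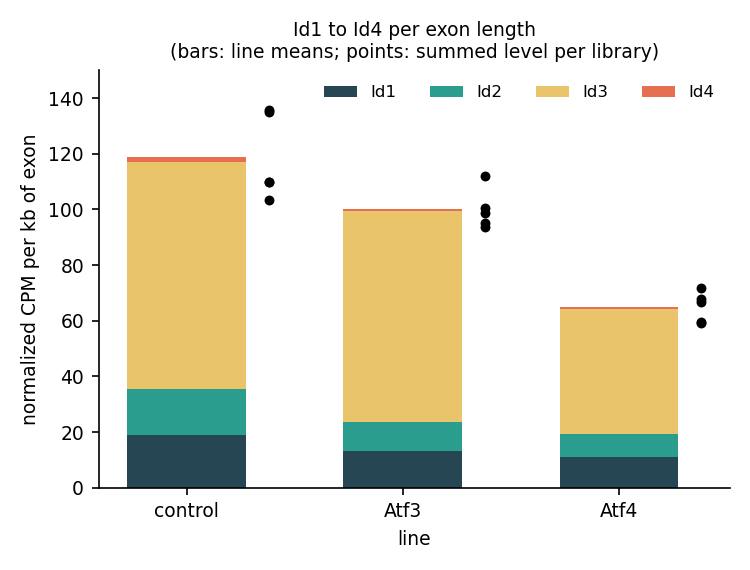
Stacked bars give the line means of Id1, Id2, Id3 and Id4 in normalized CPM per kb of exon (y axis, from 0) for the control, Atf3 and Atf4 lines (x axis), and points the summed level of each library. Id3 fills most of every bar, and the sum falls from 119 in control cells to 65.0 in Atf4 cells.

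The genes whose pattern over the 15 libraries was most like that of each Id gene were taken from 2264 protein-coding genes that vary between libraries. Likeness was the root mean square difference of log2 CPM after each gene was centred on its own mean, and small values mean alike. Nearest to Id1 were Ubald1 (0.0921), Rnf122 (0.14) and Vash1 (0.152), which encodes a tubulin-modifying enzyme. Nearest to Id2 were Nrep (0.114), Crmp1 (0.115), which encodes a cytosolic protein of axon guidance signalling, and Nr1d1 (0.124), which encodes a circadian repressor. For Id3 they were Ppp1r15a (0.169), the phosphatase subunit that reverses eIF2 phosphorylation, Mafk (0.174) and Sema4b (0.178). Id4 was most like Cdkn1c (0.165), an inhibitor of cyclin-dependent kinases known from quiescent stem cells, Plxnb3 (0.169) and Ppp2r2b (0.174). Cdkn1c was at 19.8 ± 1.33 CPM in control cells, 4.76 ± 0.487 in Atf3 cells and 6.78 ± 1.62 in Atf4 cells. Among the Id genes, Id1 and Id2 were closest to each other (0.184) and Id3 and Id4 farthest apart (0.785).

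The 6 signalling genes moved less uniformly than the Id genes. Bmpr2 was lower in both overexpressing lines, Smad9 was higher in both, Smad7 was 1.91-fold lower in Atf3 cells, and Bmpr1a moved little. Bmp4 was close to the limit of detection in every line.

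Bmp4 (ENSMUSG00000021835; chromosome 14, 46383520 to 46390669, minus strand) encodes the ligand. It had 19, 8, 14, 22 and 14 counts in the control libraries, 9, 10, 6, 9 and 5 in the Atf3 libraries and 16, 12, 7, 6 and 4 in the Atf4 libraries, or 0.246 ± 0.0742, 0.141 ± 0.0444 and 0.143 ± 0.0679 CPM (SD, n = 5). The lines overlapped throughout. In Atf3 cells its log2 fold change was -0.82 ± 0.33 SE (edgeR adjusted p = 0.033), and in Atf4 cells -0.76 ± 0.32 SE (edgeR adjusted p = 0.05, not under the threshold). Neither side of the threshold was stable for Bmp4 at this depth. The Atf3 call ended with DESeq2 (adjusted p = 0.0788) and without a filter on low counts (0.0859). It also ended without control replicate 1 (-0.75, edgeR adjusted p = 0.0717), control replicate 4 (-0.72, 0.0809), Atf3 replicate 3 (-0.73, 0.077) or Atf3 replicate 5 (-0.66, 0.0921), and without control replicates 4 and 5 together (-0.75, 0.103), over a range of 0.0145 to 0.103. The Atf4 change passed with limma-voom (adjusted p = 0.0424), with 3 other scalings and with the replicate block (edgeR adjusted p = 0.0373). It also passed without control replicate 2 (-0.90, edgeR adjusted p = 0.0237), control replicate 5 (-0.83, 0.0474), Atf3 replicate 5 (-0.75, 0.0485) or Atf4 replicate 1 (-1.05, 0.0113), over a range of 0.0113 to 0.146.

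Bmpr1a (ENSMUSG00000021796; chromosome 14, 34410734 to 34503341, minus strand), the type I receptor gene, was at 130.4, 126, 122, 121 and 124 CPM in the control libraries. The Atf3 libraries held 137, 137, 140.5, 127 and 142 CPM and the Atf4 libraries 130.5, 126, 123, 129 and 125 CPM. The 3 lines overlapped. The log2 fold change of 0.13 ± 0.03 SE in Atf3 cells passed the test (edgeR adjusted p = 0.0015), but it was no larger than the difference between scalings: with plain library totals it was -0.0034 (edgeR adjusted p = 0.932) and with upper-quartile scaling 0.01 (0.716), within a range of 1.05e-04 to 0.932. Against control the Atf4 line was at 0.02, with an approximate 95% interval of -0.05 to 0.09 (edgeR adjusted p = 0.563).

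Bmpr2 (ENSMUSG00000067336; chromosome 1, 59763400 to 59879014, plus strand), the type II receptor gene, was at 300.1, 326.5, 319, 290.4 and 273 CPM in the control libraries. It was at 199, 226, 258, 194 and 257 CPM in the Atf3 libraries and at 199, 220.3, 206.5, 259 and 277.5 CPM in the Atf4 libraries. All Atf3 libraries lay below the controls, and Atf4 replicate 5 alone of its line rose above the lowest control library. Bmpr2 fell by 0.41 ± 0.09 SE on the log2 scale in Atf3 cells (edgeR adjusted p = 6.31e-04) and by 0.38 ± 0.09 SE in Atf4 cells (edgeR adjusted p = 0.00176). Per kilobase of exon Bmpr1a exceeded Bmpr2 1.17 ± 0.0884 times in control cells, 1.73 ± 0.179 times in Atf3 cells and 1.57 ± 0.23 times in Atf4 cells. That order came from the exon lengths used (6351 bases for Bmpr1a and 17983 for Bmpr2), as in CPM Bmpr2 was the higher in every line.

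Smad9 (ENSMUSG00000027796; chromosome 3, 54755582 to 54801257, plus strand) encodes the scarcest of the Smads that BMP receptors phosphorylate. Its level was 0.867, 1.02, 1.07, 0.979 and 1.17 CPM in the control libraries, 1.18, 1.42, 1.42, 1.64 and 1.72 CPM in the Atf3 libraries and 0.911, 1.77, 1.37, 1.715 and 2.14 CPM in the Atf4 libraries. All Atf3 libraries stood above the controls, the lowest of them only just, and Atf4 replicate 1 fell within the control range. The log2 fold change was 0.53 ± 0.18 SE in Atf3 cells (edgeR adjusted p = 0.0143) and 0.62 ± 0.18 SE in Atf4 cells (edgeR adjusted p = 0.00591). A change at least as large was seen in 40.0% of all tested genes in Atf3 cells and 21.6% in Atf4 cells. The Atf3 call ended with plain library totals (0.39, edgeR adjusted p = 0.0609; 0.00232 to 0.0609 over the alternatives). Per exon length Smad9 made up 0.603 ± 0.0720% of the summed Smad1, Smad5 and Smad9 level in control cells, 0.709 ± 0.118% in Atf3 cells and 0.969 ± 0.231% in Atf4 cells.

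Smad6 (ENSMUSG00000036867; chromosome 9, 63953076 to 64022059, minus strand) encodes the inhibitor that acts mainly on the BMP branch. The control libraries held 0.674, 0.6085, 0.879, 0.504 and 0.801 CPM of Smad6, the Atf3 libraries 0.610, 0.382, 0.492, 0.503 and 0.471, and the Atf4 libraries 0.679, 0.660, 0.816, 0.4725 and 0.862, from 21 to 54 counts per library. All 3 lines overlapped. In Atf3 cells the log2 fold change of -0.49 ± 0.20 SE just passed (edgeR adjusted p = 0.0324). That call ended with DESeq2 (adjusted p = 0.057) and without a filter (edgeR adjusted p = 0.0811). It ended also without control replicate 3 (-0.42, edgeR adjusted p = 0.0772), control replicate 5 (-0.45, 0.0667), Atf3 replicate 2 (-0.41, 0.0846), Atf3 replicate 3 (-0.49, 0.0529) or Atf3 replicate 5 (-0.47, 0.0596), over a range of 0.00767 to 0.0846. Against control the Atf4 line was at 0.01 with an approximate 95% interval of -0.39 to 0.40 (edgeR adjusted p = 0.969).

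Smad7 (ENSMUSG00000025880; chromosome 18, 75367529 to 75395935, plus strand) encodes the inhibitor that acts on both the BMP and the TGF-beta branch. Its control libraries held 7.03, 6.75, 7.47, 6.81 and 7.36 CPM, its Atf3 libraries 3.42, 4.49, 3.18, 4.37 and 3.08, and its Atf4 libraries 7.07, 6.49, 6.02, 5.86 and 5.06. The Atf3 libraries lay clearly below both other lines, while Atf4 replicate 1 stood among the controls. Smad7 fell by 0.94 ± 0.11 SE on the log2 scale in Atf3 cells (edgeR adjusted p = 2.39e-07), where 19.7% of all tested genes changed at least as much. In Atf4 cells the change was -0.21 ± 0.10 SE (edgeR adjusted p = 0.0793). It passed with upper-quartile scaling (-0.27, edgeR adjusted p = 0.0321), plain totals (-0.25, 0.0434), the filter at 1 CPM (-0.25, 0.0418), a fit of only both lines compared (-0.22, 0.0334) and without Atf4 replicate 1 (-0.28, 0.0258), over a range of 0.0258 to 0.154. Per exon length Smad7 exceeded Smad6 in every line.

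**Figure D3:**
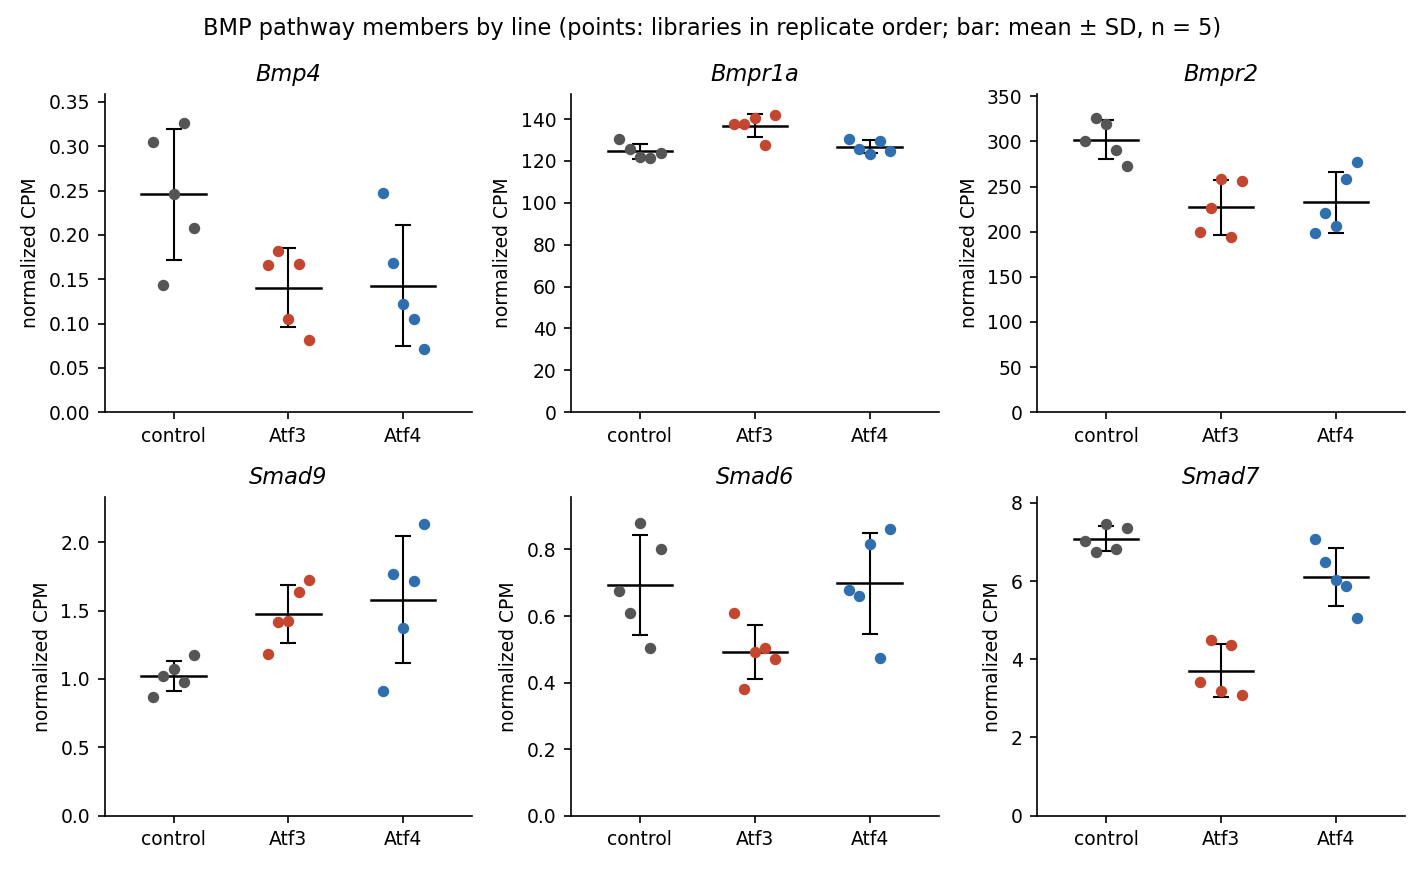
Normalized CPM (y axes, from 0) of Bmp4, Bmpr1a, Bmpr2, Smad9, Smad6 and Smad7 in the control, Atf3 and Atf4 lines (x axes). Points are libraries, bars the mean and whiskers the SD of 5. Smad7 separates the Atf3 libraries, 3.08 to 4.49 CPM, from both other lines, and Bmp4 overlaps throughout. The small rise of Bmpr1a in Atf3 cells flips to -0.0034 with plain library totals.

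In the control line the level per kilobase of exon ordered the 10 genes from Id3 through Bmpr1a (19.6 ± 0.568 CPM per kb), Id1, Bmpr2 (16.8 ± 1.204) and Id2 down to Id4, Smad7 (1.57 ± 0.0711), Smad6 (0.216 ± 0.0466), Smad9 (0.190 ± 0.0210) and Bmp4 (0.109 ± 0.0330; SD, n = 5). Neighbours from Bmpr1a to Id2 overlapped between libraries, as did Smad6 and Smad9. The steps from Id3 to Bmpr1a, from Id2 to Id4, from Id4 to Smad7, from Smad7 to Smad6 and from Smad9 to Bmp4 exceeded the spread. That from Id4 to Smad7 came from the exon lengths used (3849 and 4521 bases), as their control levels were 7.07 and 7.08 CPM. Other places in the order also depend on exon length: in CPM Bmpr2 stood above Id3 and Bmpr1a, Id2 above Id1 and Smad9 above Smad6.

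Against control, 9 of the 10 genes were called in Atf3 cells (edgeR adjusted p under 0.05), 7 of them lower and 2 higher. Over all 18244 genes tested 73.2% were called in that comparison, 36.3% lower and 36.8% higher. Most of the 10 were lower, but they were chosen with earlier results of these data known. Their lean to lower levels beside all genes, here and in Atf4 cells, is thus only a description. The median log2 fold change was -0.52 over the 10 genes and -0.02 over all genes. The lines did not overlap in 5 of the 10 genes (Id2, Id4, Bmpr2, Smad7 and Smad9), as in 60.7% of all tested genes. Depending on the alternative, 7 to 9 of the genes were called. TMM scaling centres the typical gene, and plain library totals moved the median of all genes to -0.155 in this comparison and to 0.108 in that of Atf4 with Atf3 cells (upper-quartile scaling gave -0.138 and 0.071).

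In Atf4 cells 6 of the 10 genes were called against control, 5 lower and 1 higher. The background was 61.6% of all genes, 29.7% lower and 31.9% higher. Their median log2 fold change was -0.57, against -0.0008 for all genes. The lines did not overlap in 4 of the 10 genes, the 4 Id genes, as in 47.9% of all tested genes. Alternatives gave 6 to 8 calls.

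Both comparisons share the control libraries, so the direct contrast of Atf4 cells with the Atf3 line was used to ask where the responses differed. It called 7 of the 10 genes, 4 lower and 3 higher in Atf4 cells, where 43.6% of all genes were called, 23.9% lower and 19.7% higher. The largest differences were in Id3, lower in Atf4 cells (-0.75 ± 0.08 SE, edgeR adjusted p = 2.15e-06), and in Smad7, higher there (0.72 ± 0.11 SE, edgeR adjusted p = 3.55e-05). Of all tested genes 7.93% differed at least as much as Id3 between both lines. Id2 was lower by 0.34 ± 0.08 SE (edgeR adjusted p = 0.00333). Id1, Id3 and Smad7 had no overlap of these lines, as had 25.8% of all tested genes.

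The remaining calls of the direct contrast were close to the threshold. Id1 differed by -0.27 ± 0.09 SE (edgeR adjusted p = 0.0264). This call was lost without Atf3 replicate 4 (-0.17, 0.0862), without Atf4 replicate 3 (-0.26, 0.0506), with upper-quartile scaling (-0.20, 0.0809) and with plain totals (-0.17, 0.147; 0.00888 to 0.147 over all). Bmpr1a differed by -0.11 ± 0.03 SE (edgeR adjusted p = 0.0124), but by -0.0095 with plain totals (0.834) and -0.05 with upper-quartile scaling (0.272; 0.00175 to 0.834 over all). Id4 was higher in Atf4 cells by 0.37 ± 0.14 SE (edgeR adjusted p = 0.0435), and Smad6 by 0.50 ± 0.20 SE (edgeR adjusted p = 0.0481). The Id4 call ended in 13 of 25 alternatives (0.00301 to 0.129), with 0.275 without Atf4 replicate 1, 0.296 without Atf4 replicate 2, 0.39 without Atf4 replicate 3, 0.38, 0.37, 0.39 and 0.298 without Atf3 replicates 1, 2, 3 and 5, and 0.37 without control replicate 1 or 2. The Smad6 call ended in 14 of 24 (0.017 to 0.112), with 0.51, 0.53, 0.446 and 0.425 without Atf4 replicates 1, 2, 3 and 5, 0.425, 0.50, 0.51 and 0.49 without Atf3 replicates 2, 3, 4 and 5, and 0.50 without control replicate 1, 2 or 5. Without Atf4 replicate 3 only 4 of the 10 genes were called. Bmp4 (0.06, approximate 95% interval -0.69 to 0.82), Bmpr2 (0.03, -0.16 to 0.23) and Smad9 (0.09, -0.28 to 0.46) did not pass in the direct contrast (edgeR adjusted p = 0.9, 0.789 and 0.701).

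**Figure D4:**
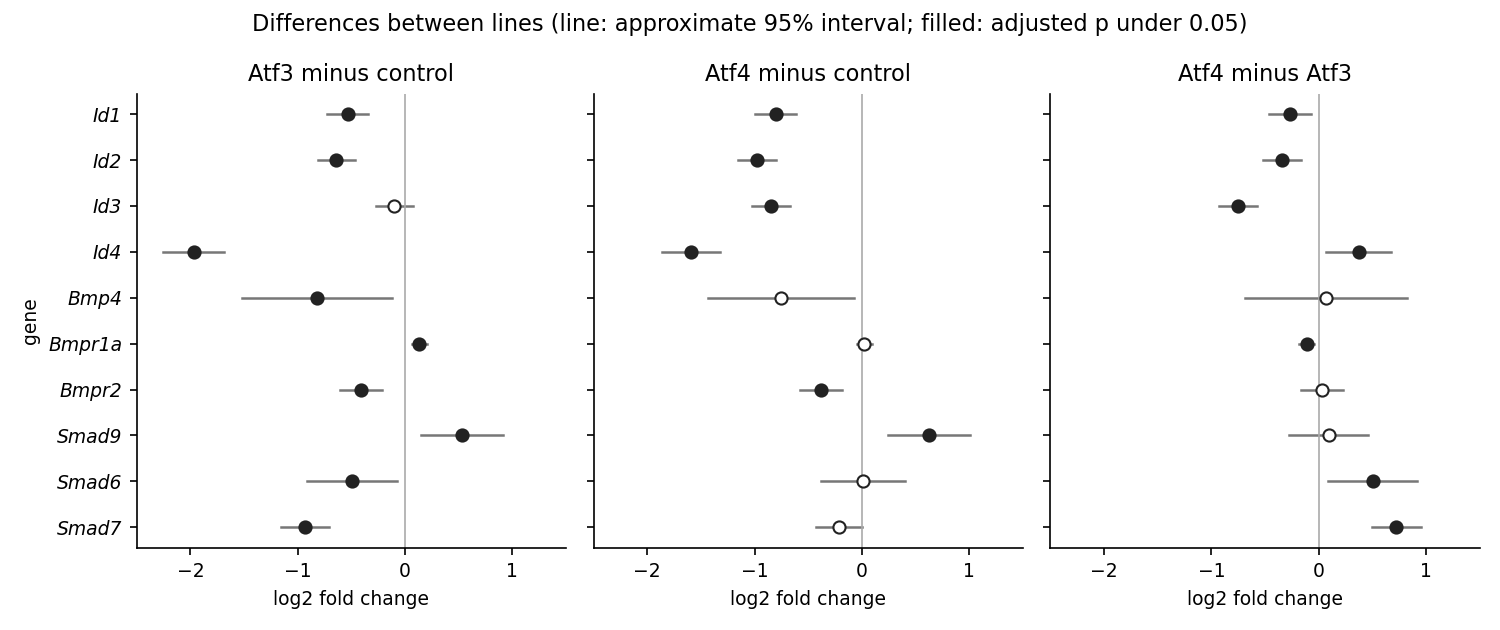
Log2 fold changes (x axis) of the 10 genes (y axis) for Atf3 minus control, Atf4 minus control and Atf4 minus Atf3. Lines are approximate 95% intervals, and filled points passed an adjusted p under 0.05. Id3 is open in the first panel (-0.10; called at -0.24 with plain totals) and lowest in the third (-0.75). Bmpr1a in the first panel (0.13) turns to -0.0034 with plain totals.

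The wider BMP pathway was followed in 47 further genes, of which 38 passed the filter. In Atf3 cells 16 of these rose and 17 fell against control, and in Atf4 cells 13 rose and 15 fell. Over all tested genes 36.8% rose and 36.3% fell in Atf3 cells, and 31.9% rose and 29.7% fell in Atf4 cells, and these shares are the background of each list that follows. The medians were 0.03 and -0.07, close to those of all genes. Rises and falls were thus about as many.

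Among 10 other BMP ligand genes 5 were tested, and in Atf3 cells 1 rose and 3 fell (median log2 fold change -1.54), against 1 and 1 in Atf4 cells (-0.41). Bmp7 was by far the most abundant of them, at 8.04 CPM per kb of exon in control cells. In CPM it was at 32.3 ± 2.29 in control cells, 56.4 ± 4.95 in Atf3 cells and 42.9 ± 2.02 in Atf4 cells (SD, n = 5). It rose by 0.80 ± 0.06 SE and by 0.41 ± 0.06 SE on the log2 scale (edgeR adjusted p = 4.7e-10 and 7.19e-06). Gdf6 fell by 1.54 ± 0.17 SE in Atf3 cells (edgeR adjusted p = 1.83e-07) and by 0.95 ± 0.16 SE in Atf4 cells (edgeR adjusted p = 5.15e-05), from a control level of 2.77 ± 0.217 CPM. Bmp3, under 1 CPM in all lines, fell in Atf3 cells (-2.28 ± 0.33 SE, edgeR adjusted p = 4.6e-06), and was at -0.41 ± 0.26 SE in Atf4 cells (0.184). The most abundant of these ligand genes rose in both lines, whereas the 3 others called in Atf3 cells fell. Any link of these levels to those of the Id genes was not tested.

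Of 8 other receptor and co-receptor genes 7 were tested, of which 3 rose and 2 fell in Atf3 cells (median 0.17) and 1 rose and 2 fell in Atf4 cells (median 0.0009). Rgma, encoding a membrane-anchored BMP co-receptor, was at 315 ± 4.28 CPM in control cells, 117 ± 19.0 in Atf3 cells and 175 ± 43.1 in Atf4 cells, a fall of 1.43 ± 0.13 SE and 0.85 ± 0.13 SE on the log2 scale (edgeR adjusted p = 1.61e-08 and 1.89e-05). Its relative Rgmb rose in Atf3 cells (0.23 ± 0.05 SE, edgeR adjusted p = 3.24e-04). That call ended with plain totals (0.096, edgeR adjusted p = 0.0854). Acvr2b, another type II receptor gene, fell in both lines (-0.62 ± 0.09 SE and -0.52 ± 0.08 SE, edgeR adjusted p = 2.92e-06 and 3.19e-05). The type I receptor gene Acvr1 rose slightly in Atf3 cells (0.21 ± 0.04 SE, edgeR adjusted p = 2.92e-04), but not with plain totals (0.07, 0.145) or upper-quartile scaling (0.09, 0.062). Eng, the gene of the co-receptor endoglin, rose in both lines (0.88 ± 0.25 SE and 0.87 ± 0.25 SE, edgeR adjusted p = 0.00418 and 0.0054) but averaged 0.182 CPM in control and no more than 0.336 CPM elsewhere. Both calls were lost when control replicates 4 and 5 were dropped, a choice made with the data in view (edgeR adjusted p = 0.0587 and 0.0732).

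Among the Smads that carry the signal, Smad5 rose in Atf3 cells, from 164 ± 2.28 to 221 ± 20.5 CPM (0.43 ± 0.07 SE, edgeR adjusted p = 9.23e-06), and stood at 158 ± 17.7 CPM in Atf4 cells. The common partner Smad4 fell a little in both lines (-0.19 ± 0.03 SE and -0.16 ± 0.03 SE, edgeR adjusted p = 6.09e-05 and 6.18e-04). Smad1 fell in Atf4 cells (-0.15 ± 0.03 SE, edgeR adjusted p = 8.06e-04). In Atf3 cells it was at -0.07 ± 0.03 SE (edgeR adjusted p = 0.0575), and 15 of 25 alternatives called it lower. The direct contrast did not call Smad1 (-0.08 ± 0.03 SE, edgeR adjusted p = 0.0766).

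Secreted antagonists and modulators moved in both directions: 4 of 9 tested genes rose and 5 fell in Atf3 cells, and 5 rose and 4 fell in Atf4 cells, with medians of -0.225 and 0.22. Crim1, encoding a membrane protein that binds BMPs, rose from 52.5 ± 4.02 CPM to 189 ± 17.4 in Atf3 cells and 132 ± 39.0 in Atf4 cells (1.85 ± 0.14 SE and 1.33 ± 0.14 SE, edgeR adjusted p = 8.11e-10 and 1.34e-07). Bmper, which encodes a secreted BMP-binding protein, rose by 0.73 ± 0.08 SE in Atf3 and 0.50 ± 0.08 SE in Atf4 cells (edgeR adjusted p = 2.96e-07 and 4.11e-05). Follistatin, encoded by Fst, rose by 0.99 ± 0.09 SE in Atf3 and 0.31 ± 0.09 SE in Atf4 cells (edgeR adjusted p = 6.85e-09 and 0.00539). Noggin, a classical BMP antagonist, was named after its values were seen, and so were Chrd and Nbl1 of the same list. Nog rose from 0.402 ± 0.105 CPM to 0.933 ± 0.161 in Atf3 cells and 0.661 ± 0.107 in Atf4 cells (edgeR adjusted p = 1.57e-05 and 0.00435). The more abundant Chrd fell from 6.80 ± 0.277 CPM to 5.225 ± 0.604 and 5.53 ± 0.690 CPM (edgeR adjusted p = 9.29e-04 and 0.00758). Nbl1 fell from 33.9 ± 1.71 CPM to 23.9 ± 1.41 and 30.9 ± 0.981 CPM (edgeR adjusted p = 1.13e-08 and 0.0145). The abundant modulator genes Fstl1 and Twsg1 fell in both lines. Fstl1 was at 295 ± 21.2, 124 ± 9.96 and 175 ± 27.4 CPM, and Twsg1 at 189 ± 4.70, 114 ± 8.17 and 145 ± 15.5 CPM, in the control, Atf3 and Atf4 lines. Their adjusted p-values (edgeR) were 2.09e-10 and 3.74e-07 for Fstl1 and 4.38e-09 and 2.69e-05 for Twsg1.

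Of 7 brakes inside the cell or in its membrane, 3 rose and 3 fell in each line, with medians of 0.03 and -0.12. Bambi, which encodes a receptor decoy and is itself a known BMP target, rose in Atf4 cells by 0.69 ± 0.07 SE (edgeR adjusted p = 6.98e-08), from 5.32 ± 0.377 to 8.59 ± 0.301 CPM, and in Atf3 cells by 0.27 ± 0.07 SE (0.00206; with plain totals 0.13 and 0.0969). Smurf1, the gene of a ubiquitin ligase for SMAD1 and SMAD5, rose in both lines (0.36 ± 0.05 SE and 0.19 ± 0.05 SE, edgeR adjusted p = 5.15e-06 and 0.00355). The corepressor gene Skil fell in both (-0.68 ± 0.06 SE and -0.46 ± 0.06 SE, edgeR adjusted p = 9.94e-09 and 2.62e-06), whereas the related Ski rose in Atf3 cells (0.43 ± 0.04 SE, edgeR adjusted p = 3.18e-08) and was at 0.11 ± 0.04 SE in Atf4 cells (0.0288; 0.00754 to 0.264 over the alternatives, 12 of which ended the call).

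The 7 other BMP target genes moved in both directions: 4 rose and 3 fell in Atf3 cells, and 3 rose and 3 fell in Atf4 cells, with medians of 0.39 and -0.08. The homeobox genes Msx1 and Msx2 rose in both lines. Msx2 was at 1.03 ± 0.133, 1.66 ± 0.149 and 1.87 ± 0.206 CPM in the control, Atf3 and Atf4 lines (edgeR adjusted p = 4.9e-05 and 4.91e-06), and Msx1 rose by 0.39 ± 0.07 SE and 0.36 ± 0.07 SE on the log2 scale (edgeR adjusted p = 3.18e-05 and 1.10e-04). Atoh8, a bHLH factor gene, fell from 4.73 ± 0.754 CPM to 0.660 ± 0.187 in Atf3 cells and 1.52 ± 0.569 in Atf4 cells (-2.84 ± 0.23 SE and -1.63 ± 0.21 SE, edgeR adjusted p = 2.69e-09 and 1.66e-06). Hey1, a target of Notch as well as BMP signalling, fell by 0.76 ± 0.08 SE and 0.42 ± 0.08 SE (edgeR adjusted p = 1.34e-07 and 2.08e-04).

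**Figure D5:**
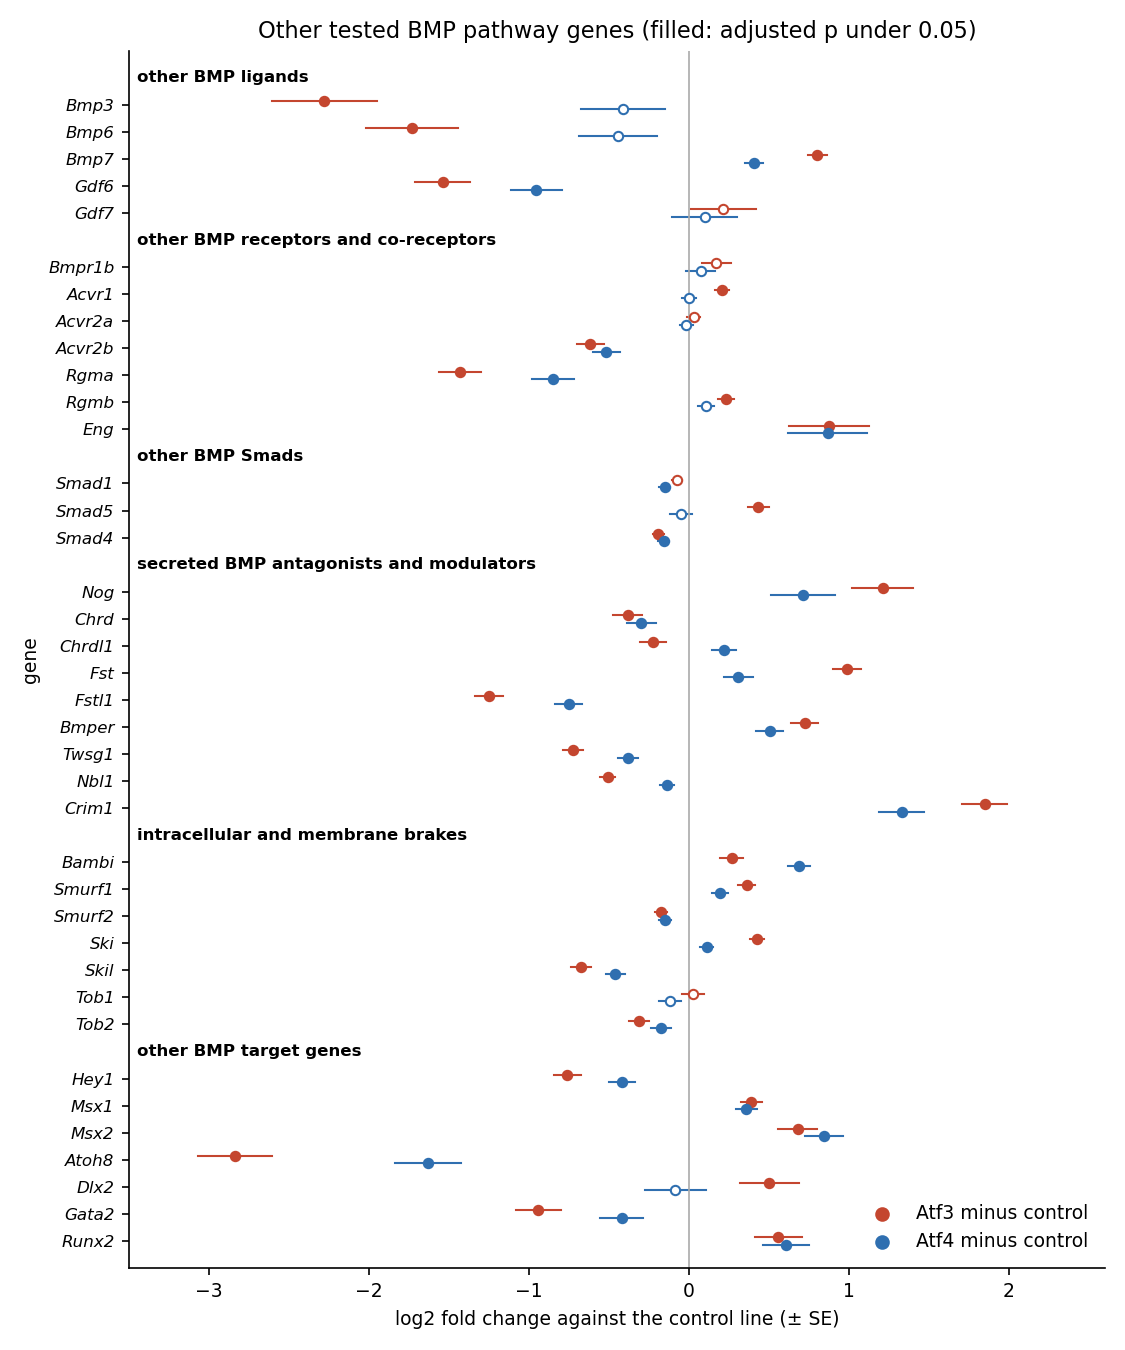
Log2 fold change against the control line (x axis, points with SE) of the 38 tested further BMP pathway genes (y axis, by role) in Atf3 cells (red) and the Atf4 line (blue). Filled points passed an adjusted p under 0.05. Rises and falls mix in most roles, with Crim1 highest (1.85) and Atoh8 lowest (-2.84) in Atf3 cells. Calls of small changes such as Acvr1, Rgmb and Bambi in Atf3 cells end with plain library totals.

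Id proteins act on E proteins, whose genes moved in both directions. Tcf3 rose in both lines (0.35 ± 0.04 SE and 0.27 ± 0.04 SE, edgeR adjusted p = 7.36e-07 and 2.71e-05). Tcf4, another E protein gene, fell from 863 ± 32.6 to 648 ± 32.2 in Atf3 cells and 658 ± 20.5 in Atf4 cells (edgeR adjusted p = 1.08e-08 and 4.76e-08). Of all 10 listed E protein and bHLH genes 2 rose and 6 fell in Atf3 cells, and 3 rose and 6 fell in Atf4 cells, with medians of -0.16 and -0.24, where 73.2% and 61.6% of all genes were called. Neurod1 rose in both lines, from 1.23 ± 0.241 CPM to 2.12 ± 0.359 and 1.77 ± 0.261 CPM (edgeR adjusted p = 1.27e-04 and 0.00608). The repressor gene Hes1, a Notch target, was at 51.7 ± 11.8 CPM in control cells, 58.0 ± 7.62 in Atf3 cells and 24.6 ± 2.53 in Atf4 cells, with a log2 fold change of -1.075 ± 0.13 SE in Atf4 cells (edgeR adjusted p = 7.95e-07) and 0.17 ± 0.12 SE in Atf3 cells (0.241). Hes5, another Notch target, was at 11.2 ± 0.843, 1.04 ± 0.437 and 3.32 ± 1.29 CPM in the same order, but 31.8% of its exon bases are shared with an antisense gene.

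In the TGF-beta and activin branch, which uses other Smads, 5 of 11 tested genes rose and 4 fell in Atf3 cells, and 6 rose and 2 fell in Atf4 cells, with medians of 0.19 and 0.12. Smad3, a signal carrier of that branch, rose in both lines (0.49 ± 0.05 SE and 0.24 ± 0.05 SE, edgeR adjusted p = 7.71e-08 and 5.21e-04), as did the ligand gene Tgfb2 (0.79 ± 0.09 SE and 0.55 ± 0.09 SE, edgeR adjusted p = 1.68e-07 and 2.37e-05). The receptor gene Tgfbr2 moved oppositely in the lines. It was at 50.95 ± 3.85 CPM in control cells, 74.0 ± 5.75 in Atf3 cells and 45.1 ± 2.996 in Atf4 cells (0.54 ± 0.06 SE and -0.18 ± 0.06 SE, edgeR adjusted p = 1.60e-07 and 0.0167). The co-receptor gene Tgfbr3 did the reverse, with -0.27 ± 0.06 SE and 0.21 ± 0.06 SE (edgeR adjusted p = 5.42e-04 and 0.00444). The receptor gene Acvr1b fell in both lines (-0.37 ± 0.04 SE and -0.11 ± 0.04 SE, edgeR adjusted p = 7.53e-08 and 0.0211), although without a filter on low counts the second call ended (0.17).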

How the data were processed

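RNA sequencing libraries of 15 samples, 5 per line, were analysed. The labels' protocols name a NEBNext Ultra RNA kit, a preparation without strand marking, and paired reads of 150 bases. The authors deposited raw counts per Ensembl gene. The submitters' processing notes list STAR, edgeR and mm10. Counting program, strand setting and annotation version: not given in the sources used here. Groups and replicate numbers came from titles, and columns were matched by the sample descriptions. Symbols, positions and union exon lengths came from GENCODE M21 (GRCm38), which named 52135 of 55416 identifiers.

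Counts were filtered with filterByExpr (18244 genes kept), scaled by TMM and fitted over all 15 libraries with edgeR 4.0.16 in R 4.3.3. Lines were compared with the quasi-likelihood test and Benjamini-Hochberg adjustment over all genes tested, and an adjusted p under 0.05 was a call. Scripts were tested on simulated data. Alternatives were DESeq2 1.42.0, limma-voom (limma 3.58.1), 3 other scalings, 2 other filters, a fit of only both lines compared, a replicate block and the leaving out of each library. Leaving out control replicates 4 and 5 together, whose Atf3 level stood apart, was chosen after seeing the data. Named genes were all 10 members, per pathway list up to 2 rising and 2 falling genes with the smallest adjusted p per line, genes moving oppositely, and the 3 nearest patterns per Id gene. The text uses most of these. Members, lists and tests were chosen with earlier results of these data known.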

Additional observations from a re-analysis of the deposited data

Results flagged for a closer look

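In 1 of 30 sets of 5 libraries, a member gene in 1 line, a library stood apart from the others by Dixon's test, and chance alone flags about 1 set in 20. Atf3 replicate 4 held 19.5 CPM of Id1, where the next library of that line held 15.1 CPM, a gap of 0.711 of the range of the line against a critical value of 0.71. Without this library Id1 had a log2 fold change of -0.63 against control (edgeR adjusted p = 8.97e-07).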

How the results depend on the processing

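Across the 10 genes and 3 comparisons, 19 of 30 results kept their side of the threshold in all alternatives run. Of these 19, 14 also kept their direction, and 5 that were never called changed sign in at least 1 alternative (Bmpr1a and Smad6 in the Atf4 line, and Bmp4, Bmpr2 and Smad9 in the direct contrast), over 21 values. Of 743 values under alternatives 677 kept their side, 49 lost and 16 gained a call, and 1 called value reversed (Bmpr1a in the Atf3 line with plain library totals, -0.0034). The falls of Id1, Id2, Id4, Bmpr2 and Smad7 in the Atf3 line and of the 4 Id genes, Bmpr2 and, as a rise, Smad9 in the Atf4 line held throughout. Without 1 library, 13028 to 13658 genes were called in the Atf3 line, 10746 to 11410 in the Atf4 line and 7157 to 8424 in the direct contrast, and 7 to 9, 6 to 8 and 4 to 7 of the 10 genes. The share of calls that were higher was 50.3% in the Atf3 line but 38.4% with plain totals and 40.0% with upper-quartile scaling, and in the direct contrast 45.2%, 72.3% and 62.8%. No label says that a replicate number pairs libraries, so the numbers were not taken to pair them. Between lines, same-numbered libraries deviated together by correlations of -0.0791 to 0.0985, and libraries of different number by -0.197 to 0.26. With the replicate block 13132, 10968 and 7589 genes were called, and 9, 7 and 6 of the 10. At 4 to 22 counts of Bmp4 and 21 to 54 of Smad6 per library, several calls crossed the threshold when 1 library was left out.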

Other observations

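Within the Atf4 line the libraries differed in Atf4 itself, from 128 CPM in replicate 1 through 147, 149.6 and 153.5 to 188 CPM in replicate 5. Sorted by this level, 4 of the 10 genes fell strictly from library to library: Id2 (23.2 to 17.2 CPM), Id4 (2.96 to 1.56), Smad7 (7.07 to 5.06) and Bmp4 (16 to 4 counts). None rose strictly. Of all 18244 tested genes 5.28% ran strictly against the Atf4 level and 5.93% strictly with it. The order by Atf4 level is also that of the replicate numbers, and Atf3 runs the same way (1.14 to 1.90 CPM), so the Atf4 level cannot be told apart from anything else that follows these numbers. This order was noticed after the values were seen, over 5 libraries, and was not tested.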
